A study of Mus musculus with 4 samples.

Results

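Open chromatin was described at Pparg, the gene of the main transcription factor of fat cells, and at genes of adipocyte hormone and complement signalling, Retn, Cfd and Adipor2, in subcutaneous white fat of mice. The genes were chosen by name from the table of genes linked to open regions. All 4 were found among its 11993 genes, and they were linked to 5 of the 12477 merged regions. The assay was ATAC-seq: a transposase, Tn5, inserts sequencing adapters where DNA is not wrapped in nucleosomes. The 4 libraries came from nuclei of frozen subcutaneous fat of wild-type (WT) mice, 2 from females and 2 from males. No treatment is named, and the labels used here give neither strain nor age. Nothing says whether replicate libraries are from different mice, so p-values measure only the spread between these libraries, which may be technical.

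PPARG is a nuclear receptor that binds DNA as a pair with a retinoid X receptor. It is required for fat cells to form and to keep their lipid-storing state, and its transcripts start from alternative promoters. Fat cells also secrete proteins. Resistin, encoded by Retn, is a cysteine-rich hormone that mouse adipocytes make, and adipsin, encoded by Cfd, is the serine protease that cleaves complement factor B in the alternative pathway. ADIPOR2 is a membrane receptor for adiponectin, another hormone of fat cells.

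The deposited measure was a peak height (tag coverage at a region, scaled per library), averaged over the regions linked to a gene. Read totals were not used here, so the depth behind a height is unknown. Heights differed between whole libraries: the medians over all genes were 38.0 and 30.2 (females 1 and 2) and 24 and 14.7 (males 1 and 2). Male 2 stood apart, with Spearman correlations across genes of 0.584 to 0.643 with the other libraries, against 0.822 to 0.850 among those, and a median peak width of 284 bp against 160 to 171 bp. Results are therefore also given without it.

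None of the regions lay at a start of Pparg, Retn or Cfd, whereas 1 of the 2 regions of Adipor2 covered a RefSeq start of that gene. RefSeq start windows (250 bp before to 50 bp after a start, GRCm38.p6, the assembly that mm10 names) were held for all 4 genes, 6 windows in all. Of these, 1 overlapped a region, against 23.6% of 32817 windows of all genes. The sequences are shown because the windows differ in CpG content: 5′ to 3′ on the strand of the gene, with each CpG in capitals.
Adipor2, chr6:119388685-119388984, minus strand: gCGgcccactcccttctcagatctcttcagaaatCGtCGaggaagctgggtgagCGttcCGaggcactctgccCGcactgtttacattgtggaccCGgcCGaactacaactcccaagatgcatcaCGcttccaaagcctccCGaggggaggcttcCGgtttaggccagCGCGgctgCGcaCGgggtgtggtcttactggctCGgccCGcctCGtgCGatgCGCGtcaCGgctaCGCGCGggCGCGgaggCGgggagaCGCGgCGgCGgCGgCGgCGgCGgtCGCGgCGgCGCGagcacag
Pparg, chr6:115360894-115361193, plus strand: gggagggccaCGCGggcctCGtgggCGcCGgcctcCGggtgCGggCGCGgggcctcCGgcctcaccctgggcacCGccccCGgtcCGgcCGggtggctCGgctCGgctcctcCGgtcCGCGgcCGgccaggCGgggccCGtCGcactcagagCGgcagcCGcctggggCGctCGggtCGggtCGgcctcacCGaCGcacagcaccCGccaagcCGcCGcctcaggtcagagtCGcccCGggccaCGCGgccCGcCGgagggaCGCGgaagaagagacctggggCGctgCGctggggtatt
Pparg, chr6:115421816-115422115, plus strand: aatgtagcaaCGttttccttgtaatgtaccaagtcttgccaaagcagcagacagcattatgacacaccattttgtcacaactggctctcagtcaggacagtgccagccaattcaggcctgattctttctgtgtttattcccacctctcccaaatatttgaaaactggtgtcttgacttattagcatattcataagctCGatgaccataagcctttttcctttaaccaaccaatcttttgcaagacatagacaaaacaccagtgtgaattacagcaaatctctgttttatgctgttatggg
Retn, chr8:3655520-3655819, plus strand: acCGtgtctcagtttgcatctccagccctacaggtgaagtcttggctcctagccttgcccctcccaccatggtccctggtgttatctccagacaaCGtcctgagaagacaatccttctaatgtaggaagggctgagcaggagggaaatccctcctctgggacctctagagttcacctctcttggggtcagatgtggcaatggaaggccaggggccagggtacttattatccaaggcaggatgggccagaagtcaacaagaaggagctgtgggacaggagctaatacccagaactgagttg
Cfd, chr10:79890603-79890902, plus strand: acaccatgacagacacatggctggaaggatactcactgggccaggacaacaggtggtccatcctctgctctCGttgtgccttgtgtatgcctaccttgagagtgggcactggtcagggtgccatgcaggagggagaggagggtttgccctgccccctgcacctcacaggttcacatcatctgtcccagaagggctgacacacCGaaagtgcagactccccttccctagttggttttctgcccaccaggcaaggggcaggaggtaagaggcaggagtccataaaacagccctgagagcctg
The Adipor2 window held 41 CpG and shared 239 bp with a merged region. The first Pparg window, at the start of the gene, held 44 CpG, more than 97.8% of windows, and did not overlap a region. Retn, Cfd and the Pparg window 60845 bp downstream of the deposited start each held 2 CpG. A further Pparg window (chr6:115362099-115362398), not printed, held 13. Over all genes, 0.952% of 12495 windows with at most 4 CpG overlapped a region, 13.0% of 8966 windows with 5 to 14, 54.0% of 5312 with 15 to 24 and 59.4% of 6044 with 25 or more. The windows of Retn and Cfd, which overlapped no called region, thus fell in the class with the lowest share, and the first Pparg window in the class with the highest. Heights within the windows were not analysed here.

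**Figure D1:**
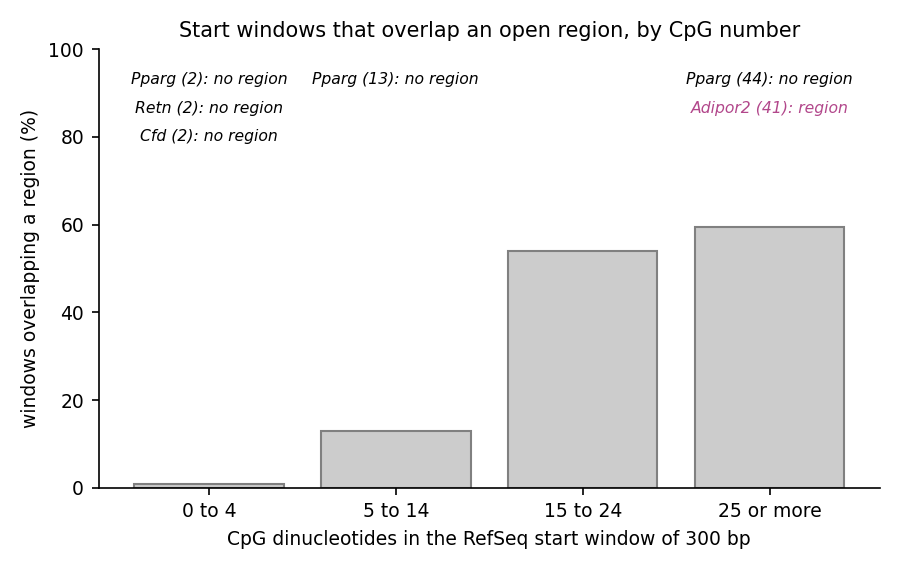
Share of RefSeq start windows (300 bp each) that overlap a merged open region, in percent (bars), by the number of CpG dinucleotides in the window; the text over each bar names the windows of the 4 genes with their CpG number. The share rises from 0.952% to 59.4%, and of the 6 windows of these genes that of Adipor2 overlaps a region.

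Letters of known promoter motifs were searched in the same windows on both strands, and overlaps between motifs were allowed. The Adipor2 window held a match to the ZNF143 motif, ACTACAACTCCC, at -148 bp from the start (chr6:119388871-119388882), and the ETS core CCGGAAG, on the opposite strand, at -99 bp (chr6:119388827-119388833). Both lay inside the merged region. These motifs occurred in 0.951% and 8.86% of all windows, and in 3.14% and 22.7% of windows that overlap a region. The pattern TTNCNNAA, core letters of sites of the C/EBP family, which acts with PPARG in fat cells, was found at 2 places in the Pparg window at 60845 bp and at 1 in that of Adipor2, outside the region, and occurs in 40.7% of all windows. The CCAAT box (CCAAT, 37.4% of all windows) stood at 2 places in the same Pparg window and at 1 in the unprinted one, which also held TATAAA (13.6%) on the opposite strand. The GC box GGGCGG (35.6%) was found in the first Pparg window and at 2 places in the unprinted one. No window of the 4 genes held the repeat bound by PPARG with a retinoid X receptor (the DR1 motif, 0.381% of all windows), and Retn and Cfd held none of the 7 motifs. Letters in a window are a description and do not show that a factor binds there.

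Pparg was linked to a single region, within the gene and linked to no other gene. The region was chr6:115463041-115463298 (mm10, 258 bp) in a gene at 115361221 to 115490401 (GeneID 19016, plus strand). Its summits lay 101883 bp and 101979 bp downstream of the deposited start in the females, and of all genes 1.47% had their nearest summit at least as far away. Whether the region is exonic or intronic was not analysed here. It was 40926 bp past the last Pparg start window, and the nearest other region, 48185 bp further on, had a peak of 31.0 in female 1 alone and was linked to no gene. The next region upstream was 224191 bp away, linked to Syn2 and Timp4.

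At the Pparg region the height was 28.0 and 20.6 in females 1 and 2, and 14.8 and 12.5 in males 1 and 2. On this deposited scale both females were higher than both males, and the males were closer to each other than the females were. In tissue, fewer cells of a type and less open chromatin per cell cannot be told apart. A peak was called in both females and in neither male, as for 12.9% of all merged regions. In male 2 the uncalled Pparg height was nonetheless above 8.42% of the summits that were called in that library, and in male 1 above 2.88%.

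Adipor2 was linked to 2 regions, both inside the gene and linked to no other gene. The gene (GeneID 68465, minus strand) lies at 119353150 to 119417483 in the deposited table. The first region, chr6:119388643-119388923 (281 bp), had its summits 28651 to 28715 bp downstream of the deposited start, and the RefSeq start of the printed window lies 28749 bp downstream. Measured from that RefSeq start, the summits were 66 bp before it in female 1, 98 bp before it in female 2 and 34 bp before it in male 1. The second region, chr6:119396346-119396548 (203 bp), was 7423 bp further toward the deposited start. A peak was called at both regions in female 1, female 2 and male 1 and at neither in male 2, a pattern of 14.4% of merged regions.

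Summit heights at the Adipor2 start region were 64.0 in female 1, 43.6 in female 2 and 38.2 in male 1. At the second region they were 62.0, 28.8 and 21.9 in the same order. The start region was the higher of the pair in each of these libraries, by a ratio of 1.03, 1.51 and 1.74. In male 2 the table gave only the mean over both regions, 12.85, and how it divides between them was not analysed here. As means over both regions the heights were 63.0 and 36.2 in females 1 and 2, and 30.04 and 12.85 in males 1 and 2. Both females were higher than both males, but the females differed by 26.8 from each other, almost as much as the means of the sexes, which differed by 28.1.

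Retn was linked to a region upstream of the gene that lies nearer to another gene. The region was chr8:3645983-3646063, of 81 bp, and 2.17% of merged regions were shorter. Its summit lay 9722 bp upstream of Retn (GeneID 57264, 3655770 to 3659818, plus strand) and downstream of Stxbp2, whose product takes part in the fusion of secretory vesicles, 14888 bp from the Stxbp2 start. Stxbp2 was linked to a second region as well, chr8:3621295-3621597, shared with Xab2, Pet100 and Pcp2, with a peak in all 4 libraries (summits of 60.0, 38.6, 36.8 and 20.6 in female 1, female 2, male 1 and male 2). That region is the nearest to the Retn region, 24386 bp away.

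At the Retn region the height was 27.0 and 22.2 in females 1 and 2, and 10.6 and 2.203 in males 1 and 2. Both females were higher than both males, and male 2 was the lowest value among the 16 heights of the 4 genes. For genes with 1 region, such as Retn, each height was a whole number of steps of its library (within 2% of a step), and the male 2 height was 3 steps of 0.734. A peak was called in female 1 alone, as for 23.1% of merged regions. Calls did not follow height strictly: in female 2 Retn at 22.2 had no peak, while Pparg at 20.6 had a peak.

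Cfd was linked to a region between the genes of neutrophil proteases. The region, chr10:79884499-79884663 (165 bp), had its summit 6309 bp upstream of Cfd (GeneID 11537, 79890853 to 79892656, plus strand). It lay at -1768 bp from the start of Elane, which encodes neutrophil elastase, and downstream of Prtn3, which encodes another serine protease of neutrophil granules. The region was linked also to BC005764, at -9910 bp from its start. Negative distances are upstream. These 4 genes had no other region, so they carry the same measurement, which cannot be assigned to Cfd rather than to Elane or Prtn3. Of the other neutrophil markers listed, Csf3r was measured (39.0, 31.2, 31.1 and 16.2 in female 1, female 2, male 1 and male 2) and S100a8 and S100a9 were not analysed here. The part of neutrophils in the Cfd height was not tested.

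At the Cfd region the height was 21.0 and 29.6 in females 1 and 2, and 9.19 and 5.87 in males 1 and 2. Both females were higher than both males. It was the only one of the 4 genes whose height was larger in female 2 than in female 1. A peak was called in female 2 alone, as for 10.4% of merged regions. The nearest other region, chr10:79908526-79908933, lay downstream at 23863 bp, was linked to Med16, R3hdm4 and Kiss1r, and had summits of 63.0 in female 1, 62.5 in female 2 and 17.6 in male 2, with no peak in male 1.

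**Figure D2:**
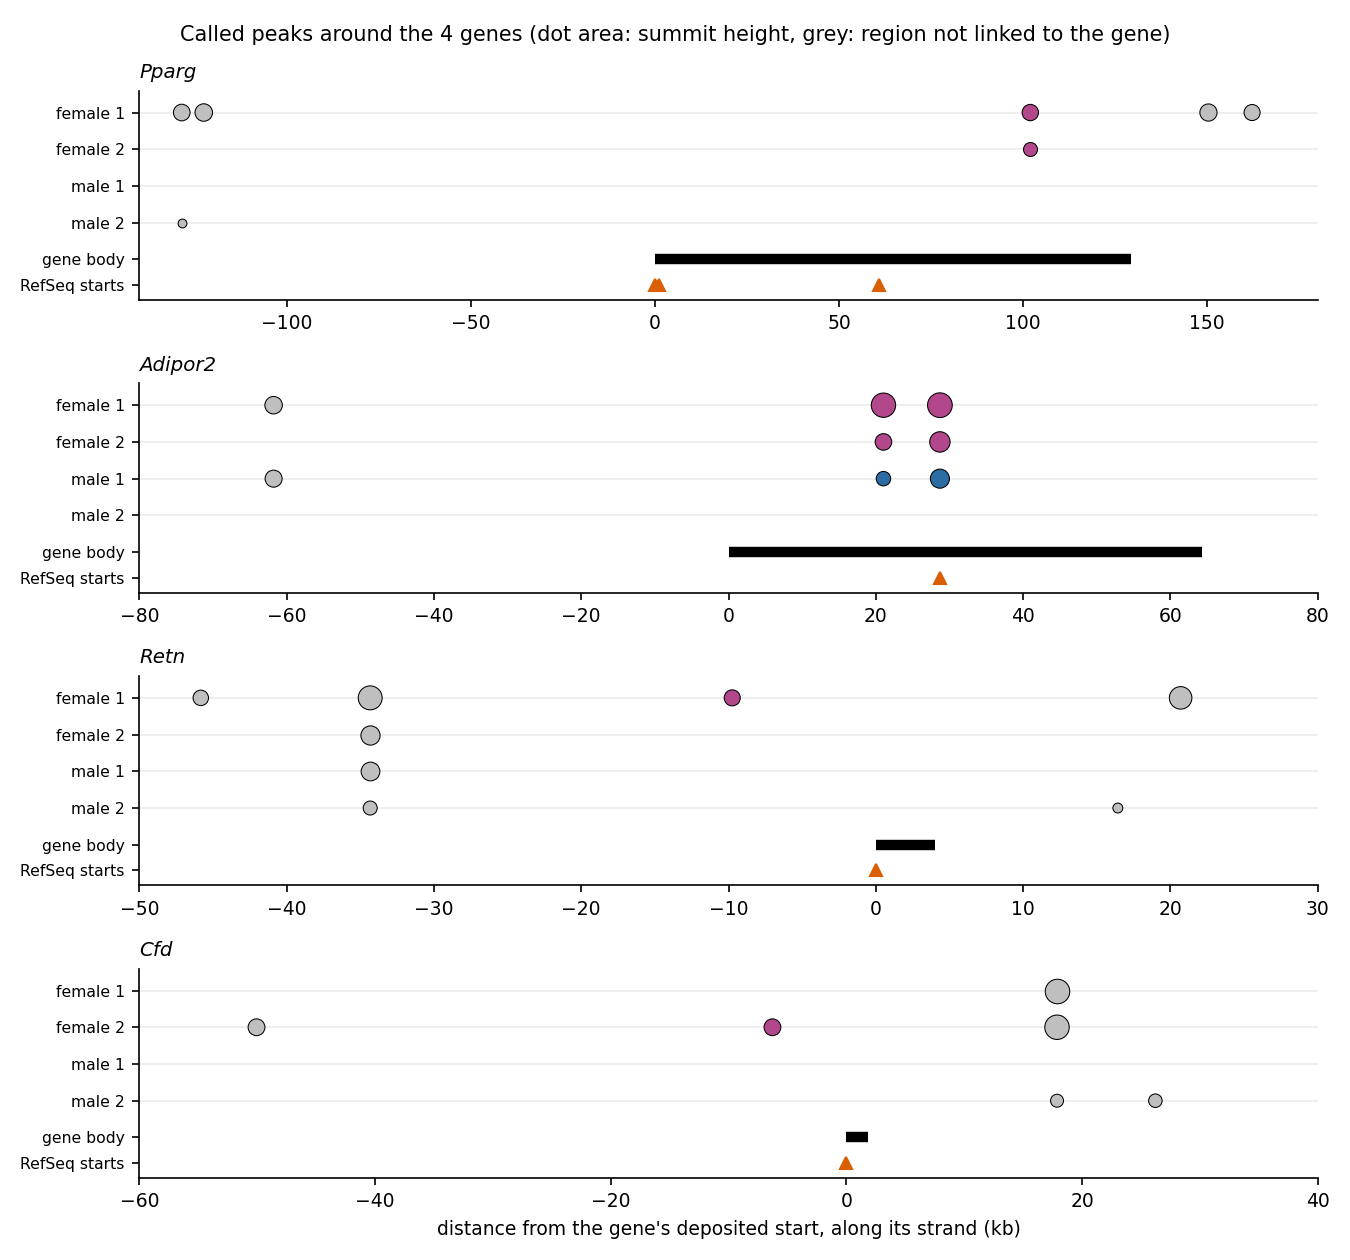
Peaks called in each library (rows) by distance in kb from the deposited start of Pparg, Adipor2, Retn and Cfd; dot area is proportional to the summit height, coloured dots are regions linked to the gene (pink for females, blue for males), grey dots other regions, black bars gene bodies and orange triangles RefSeq starts. The gene bodies of Retn and Cfd hold no peak, and the triangle of Adipor2 coincides with peaks in 3 libraries.

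Counted over the 5 regions, a peak was called in 8 of 10 pairs of region and female library and in 2 of 10 pairs of region and male library. Over all merged regions the shares were 71.4% and 37.7%. Only the regions of Adipor2 had a peak in a male, and none of the 5 had a peak in male 2.

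**Figure D3:**
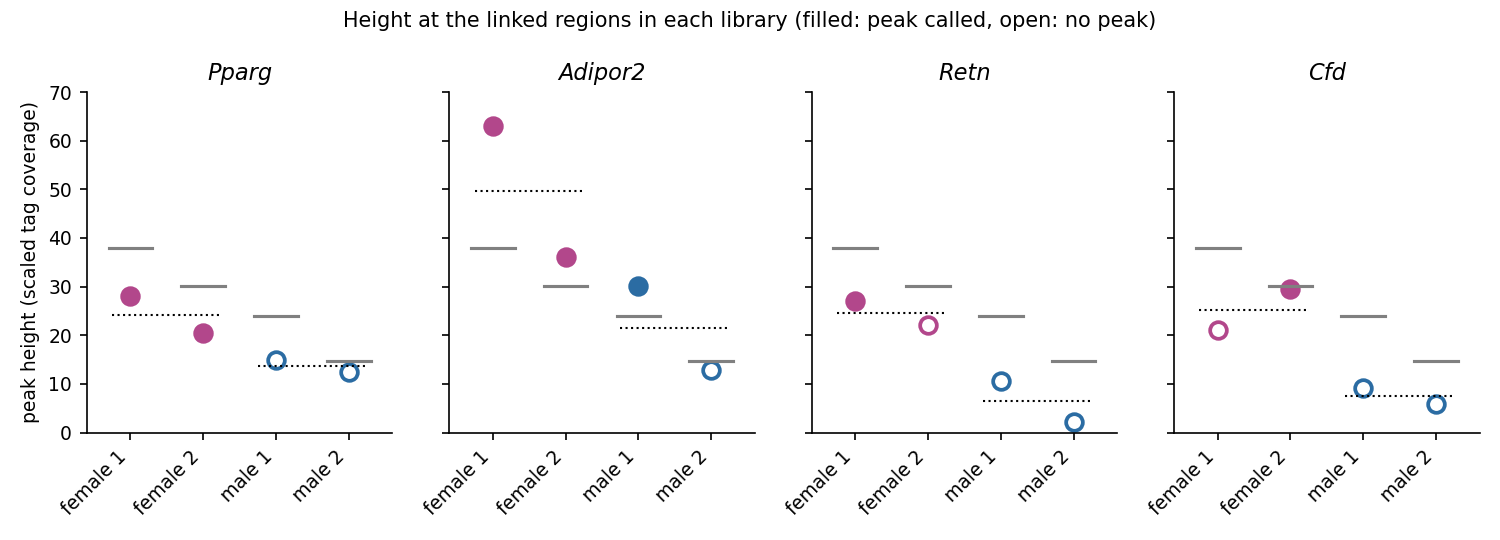
Peak height (scaled tag coverage) of each gene in each library; filled points have a called peak and open points have none, grey bars are the median over all genes in that library and dotted lines the mean of each sex. On the deposited scale the points of both males lie below those of both females for each gene, as do the grey bars.

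The sexes were compared with limma on log2(height + 9) over all 11993 genes, with Benjamini-Hochberg adjustment. Of all genes 0.592% passed at an adjusted p under 0.05 as lower in males (71 genes) and 0% as higher (1 gene, 0.00834%, at an unadjusted p under 0.05). None of the 4 genes passed, although 3 of them, Retn, Cfd and Adipor2, had an unadjusted p under 0.05, as had 31.4% of all genes (3768) in the direction of lower in males. For all 4 the heights of both males were below those of both females, as for 76.4% of all genes. After centring of libraries this held for 2 of the 4, and for 21.7% of all genes. Genes entered the table through peaks called in any library. At Pparg, Retn and Cfd peaks were called in females alone, which favours lower heights in males at these regions. Of all genes 27.9% had no peak in either male, so the 76.4% carries the same limit. Fold changes of log2(height + 9) understate the change of low heights, and the median difference over all genes was -0.63.

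For Retn the mean was 24.6 ± 3.40 for females against 6.40 ± 5.94 for males (SD over 2 libraries; limma, log2 difference -1.18, 95% interval -1.86 to -0.49, adjusted p = 0.0671). Of all genes 2.09% had a lower difference. For Cfd it was 25.3 ± 6.08 against 7.53 ± 2.34 (limma, log2 difference -1.05, 95% interval -1.74 to -0.36, adjusted p = 0.0968), with 5.84% of genes lower. Adipor2 had 49.6 ± 19.0 against 21.4 ± 12.2 (limma, log2 difference -0.97, 95% interval -1.75 to -0.18, adjusted p = 0.124), with 10.1% of genes lower. Pparg had 24.3 ± 5.27 against 13.7 ± 1.67 (limma, log2 difference -0.55, 95% interval -1.26 to 0.17, adjusted p = 0.230), smaller than the median over all genes. The 4 intervals overlap one another, and each holds the median of all genes. The order of the 4 differences changed with the setting: without female 1 that of Cfd (-1.23) was larger in size than that of Retn (-1.07), and without female 2 that of Adipor2 (-1.30) was larger than that of Retn (-1.28).

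Without male 2, the library that stood apart, the differences were -0.77 for Retn, -0.90 for Cfd, -0.55 for Adipor2 and -0.47 for Pparg, against a median of -0.40 over all genes, with limma adjusted p-values of 0.538 to 0.547. Without male 1 they were -1.58, -1.19, -1.38 and -0.62, and Retn, Cfd and Adipor2 passed (limma adjusted p = 0.00171, 0.00867 and 0.00220), as did 6391 genes lower in males. In that fit male 2 is the only male and is assumed to vary like the females. With each library centred on its median over all genes, Retn (-0.56), Cfd (-0.43) and Adipor2 (-0.35) had negative differences while that of Pparg turned (0.07), with limma adjusted p-values of 0.609 to 0.935. Both males then stayed below both females for Retn and Cfd, and not for Adipor2 and Pparg. Of all genes 21.7% kept that order.

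**Figure D4:**
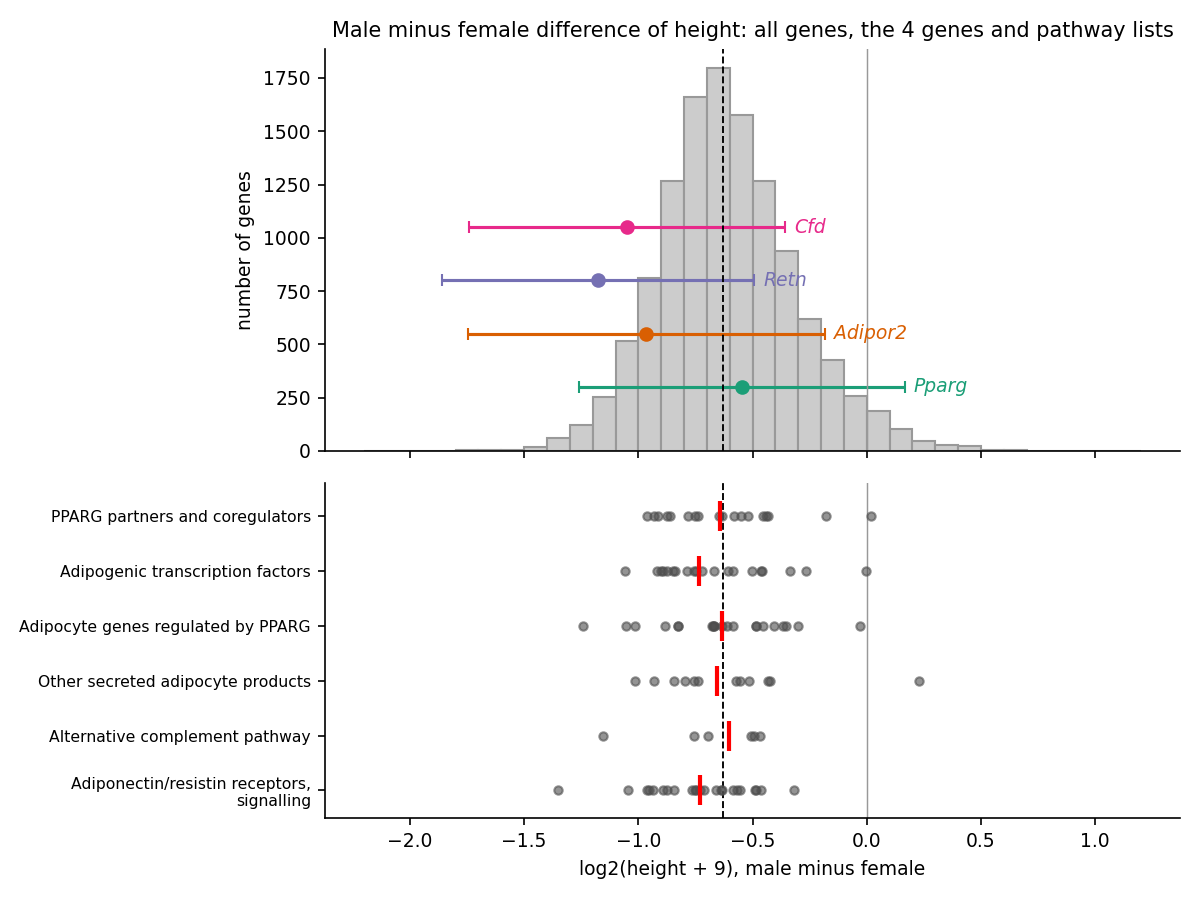
Differences of log2(height + 9), male minus female: the histogram counts all 11993 genes, points with bars are the 4 genes with 95% intervals from limma, and the lower panel gives each measured gene of 6 pathway lists with the list median in red. The dashed line is the median over all genes, -0.63, which each of the 4 intervals holds.

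Ranks within a library do not depend on its scaling. They do depend on which regions were called, and peaks at Pparg, Retn and Cfd were called in females alone. The share of all genes with a lower height than Adipor2 was 88.2% and 65.8% in females 1 and 2, and 70.6% and 39.3% in males 1 and 2. Adipor2 was thus in the upper part of the genes in every library but male 2. For Pparg the shares were 23.4%, 19.6%, 15.4% and 35.9% in the same order, so that its highest rank was in male 2, where its height was lowest. Retn had 21.4% and 24.5% in the females but 6.495% and 0.709% in the males. Cfd had 9.94% and 47.6% in the females and 4.49% and 6.03% in the males.

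**Figure D5:**
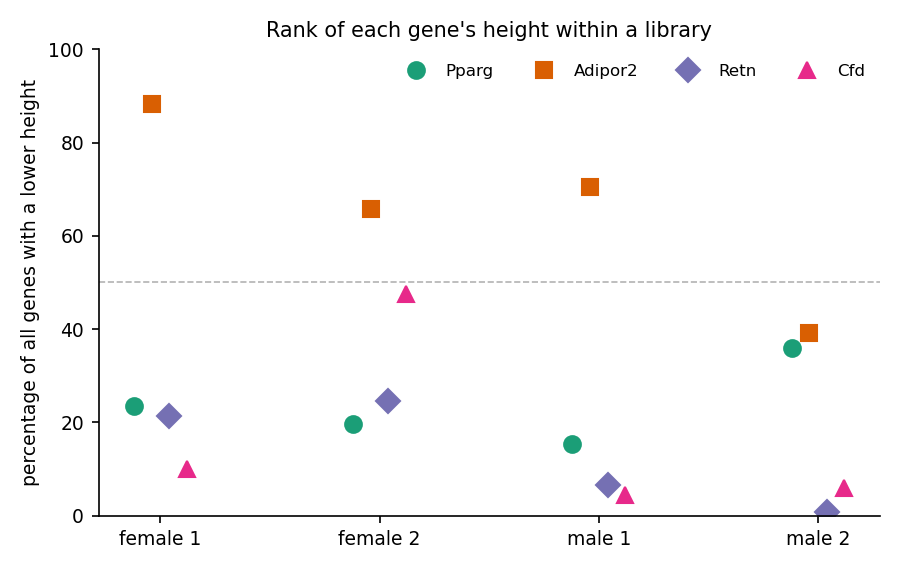
Percentage of all genes with a lower height than each of the 4 genes, within each library; the dashed line marks 50%. Retn and Cfd lie lower in both males (0.709% to 6.495%) than in both females, whereas Pparg is highest in male 2 at 35.9%. The Retn region was called in female 1 alone and the Cfd region in female 2 alone, which favours low ranks in males.

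Heights were also set against Pparg in the same library, which removes a common scale. It does not remove the choice of regions by peaks called in females alone. The height of Retn was 0.964 times that of Pparg in female 1 and 1.08 times in female 2, against 0.714 and 0.176 in male 1 and male 2. For Cfd the ratio was 0.75 and 1.44 in the females and 0.619 and 0.471 in the males. For Adipor2 it was 2.25 and 1.76 against 2.02 and 1.03, and the sexes overlapped. The exact permutation test of 2 libraries against 2, two-sided, gave p = 0.333 for Retn and for Cfd, the smallest p it allows, and p = 0.667 for Adipor2. These 3 ratios were the only ones tested, and with this number of libraries no adjustment could bring them past a threshold.

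The genes most like each of the 4 were those with the smallest Euclidean distance of log2(height + 9) over the 4 libraries. Pparg was nearest to Ppm1f, a protein phosphatase gene (distance 0.0249; heights 28.0, 20.6, 14.8 and 12.1), and to Camk2d, a calcium/calmodulin-dependent kinase gene (0.0453). Adipor2 was nearest to Bdp1, a transcription factor subunit of RNA polymerase III (0.0801; 63.0, 37.0, 29.7 and 11.7), and Apoa5, an apolipoprotein gene (0.0982). Retn was nearest to Casz1, a zinc finger transcription factor gene (0.156; 28.3, 25.2, 9.90 and 1.96), and Palm2 (0.201). Cfd was nearest to BC106179, which shares its regions with St6gal1, a sialyltransferase gene (0.204; 25, 28.8, 9.90 and 6.61), and Ppl, which encodes periplakin (0.208). The distances were smaller for Pparg and Adipor2 than for Retn and Cfd.

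The pathway lists are given as counts beside the shares over all genes, 0.592% called lower and 31.4% lower at an unadjusted p under 0.05. Of 21 listed partners and coregulators of PPARG 18 were measured, 0 passed in either direction in limma (8 lower and 0 higher at an unadjusted p under 0.05), and the list median was -0.64 against -0.63 over all genes. Rxra, the retinoid X receptor that pairs with PPARG, had 40.3 and 34.3 in the female libraries, 21.4 and 10.8 in the male ones. The 3 smallest p-values were those of the coactivators Ncoa3 (log2 difference -0.96) and Ncoa6 (-0.93) and of Prdm16 (-0.88), which steers fat cells to the brown and beige state. The region of Ncoa6 was shared with Trp53inp2.

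Transcription factors listed for adipogenesis, whatever the direction of their effect, had a list median of -0.74. Of these 20 of 23 were measured and 0 called (9 lower and 0 higher at an unadjusted p under 0.05). Cebpa, whose product and PPARG maintain each other in fat cells, had 51.0 and 48.5 in females against 29.0 and 22.8 in males. Cebpb, an early inducer of Pparg, had 40 and 18.9 against 19.8 and 38.2, so that the sexes overlapped and male 2 was nearly as high as female 1. Cebpd (-1.06), Ppard (-0.90) and Gata3 (-0.89) had the smallest p-values of the list. The region of Gata3 was shared with 4930412O13Rik and 9230102O04Rik.

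Of 30 listed adipocyte genes that PPARG regulates 21 were measured and 0 called (6 lower and 0 higher at an unadjusted p under 0.05), with a median of -0.63. Agpat2, an acyltransferase of triglyceride synthesis, had the smallest p (heights 57.0, 34.5, 25.4 and 5.87, log2 difference -1.24, limma adjusted p = 0.0804). Angptl4, a secreted inhibitor of lipoprotein lipase, lay at -1.02 and Lipe, hormone-sensitive lipase, at -1.05. Lipe shared its regions with Cxcl17 and LOC101055998.

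Among other secreted products of fat cells 12 of 32 were measured and 0 called (5 lower and 0 higher at an unadjusted p under 0.05), with a median of -0.66. Besides Angptl4 the smallest p-values were those of Lcn2, lipocalin 2 (-0.93), and the chemokine gene Ccl2 (-0.84). The region of Lcn2 was shared with 1110008P14Rik. Of the alternative complement pathway, in which adipsin acts, 6 of 16 genes were measured and 0 called (3 lower and 0 higher at an unadjusted p under 0.05), with a median of -0.60. Cfb, the gene of the factor that adipsin cleaves, lay at -1.16 with 58.0 and 41.1 in the female libraries, 24.7 and 11.0 in the male ones (limma adjusted p = 0.0972). Its region, 12178 bp from its start, was shared with Nelfe. The regulators Cd46 and Cd55 lay at -0.76 and -0.70.

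Receptors and signalling of adiponectin and resistin had 23 of 31 genes measured and 0 called (8 lower and 0 higher at an unadjusted p under 0.05), with a median of -0.73. Adipor1, the other adiponectin receptor gene, shared its regions with Cyb5r1 and had 46.0 and 49.7 in the female libraries, 28.6 and 13.95 in the male ones (log2 difference -0.95), beside -0.97 for Adipor2. Paqr3, of the same receptor family, had the smallest p of the list (47.0, 37.8, 15.6 and 7.34, log2 difference -1.35, limma adjusted p = 0.0516). Appl2, an adaptor of adiponectin signalling, lay at -1.05 and Paqr6 at -0.89, from a region shared with osteocalcin genes such as Bglap.

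The tissue label was set beside adipocyte markers. Of 9 listed markers 5 were measured: Pparg, Lipe, Cidec, Pnpla2 and Cebpa. Adipoq, Plin1, Fabp4 and Lep were not analysed here in the gene table. RefSeq start windows, 12 in all, were held for 8 of the 9. Of these windows 3 overlapped a region, 1 each of Lipe (of its 2), Pnpla2 and Cebpa, beside 23.6% of windows of all genes. The window of Adipoq held 0 CpG and that of Plin1 held 2, as few as those of Retn and Cfd, and the nearest regions were 18179 bp and 47743 bp away. That of Lep held 19 and overlapped no region, with the nearest 28160 bp away, while those of Pnpla2 and Cebpa held 18 and 29. Of 29 windows of 26 other secreted products, 4 overlapped a region, against 23.6% of windows of all genes. They were those of Nampt, Angptl8 (Gm6484 in the gene table), Metrnl and Sparc, with 36, 8, 24 and 4 CpG. Rbp4 had a window with 40 CpG and none that overlapped a region. The summed height of the 5 measured markers, with that of Pparg itself included, was 241, 192, 127 and 99.3 in female 1, female 2, male 1 and male 2. Among these markers, Cidec had its only region 16363 bp from its start, shared with Ttll3 and Rpusd3. Lipe shared its regions with Cxcl17 and LOC101055998.

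Summed heights of markers of other cell types are given beside these values, on the deposited scale, where 76.4% of all genes were lower in both males. The summed height of 2 mammary epithelium genes (Cldn3 and St14, of 10 listed) was 45 and 40.3 in females and 11.3 and 3.67 in males. Cldn3 had a peak in female 2 alone, at a region shared with Wbscr25, and a height of 2.203 in male 2. St14 had a peak in female 1 alone, at a region 10967 bp from its start. Peaks called in females alone favour lower heights in males. The St14 heights in males 1 and 2 were 2.121 and 1.469, below the 5th percentile of nonzero heights (8.08). At these low heights St14 was called lower in males (limma adjusted p = 0.0283). That call was lost with centred libraries, with quantile normalization, without female 1 and without male 2 (limma adjusted p = 0.614, 0.638, 0.0551 and 0.538). The summed height was 76.0, 68.2, 37.5 and 21.1 for Cd68 and Cd9 of 7 listed macrophage genes. It was 72.0, 57.1, 37.5 and 28.3 for Pecam1, Tek and Eng of 5 endothelial genes. For Elane and Csf3r, 2 of 4 neutrophil genes, it was 60.0, 60.8, 40.3 and 22.0. The Elane height in this sum is the Cfd height itself, from the same region. For Pdgfrb and Ly6a of 5 progenitor genes the summed height was 48.0, 33.7, 18.4 and 31.6. These differed in direction, with a log2 difference of -1.03 for Pdgfrb and 0.11 for Ly6a, whose heights of 19.0, 9.86, 9.90 and 23.5 were highest in male 2. Mb, the only one of 4 skeletal muscle genes measured, had 70, 50.1, 24.03 and 17.6. Its region lay 13772 bp from its start and was shared with Apol6. Cd68, Eng, Pdgfrb and Ly6a also shared their regions with other genes. Defining genes such as Epcam, Adgre1, Cdh5 and Pdgfra were not analysed here. None of the 11993 genes was called higher in males, so no measured marker was. The part of these cell types in the heights of the 4 genes was not tested.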

How the data were processed

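ATAC-seq libraries of 2 female and 2 male samples were analysed. Alignment and peak calling name BWA and MACS2 2.1.0 on mm10, per the submitters' processing notes. For filters, duplicates and the Tn5 offset, settings are not given in the sources used. The deposited signal is a peak height (coverage), scaled per library by the authors, since single-region genes had heights in whole steps (tolerance 2% of a step) whose size differed between libraries. Peaks were called per library and merged, per the file headers. Unused per-library columns numbered 0.

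Heights were tested as log2(height + 9) without a filter, with limma 3.58.1 (R 4.3.3, trend) on 11993 genes, and adjusted over all of them; p under 0.05 was the threshold. The pseudocount lies just above 8.08, the 5th percentile of nonzero heights. The test was tried on simulated data. A peak counts as present where the interval overlaps a region by 1 bp. Start windows are from RefSeq (GRCm38.p6); 11704 gene IDs matched. Python 3.11.15, pandas 2.3.3, numpy 2.4.6, scipy 1.17.1 and matplotlib 3.10.9 were used. The 4 genes and all lists were chosen with earlier results of these data known. Besides the 4 genes, those named share a region with them, are the 2 most like each, have the 3 smallest p of a list, or belong to a fixed set (Adipoq, Fabp4, Plin1, Lep, Cebpa, Cebpb, Rxra and Adipor1). Genes of neighbouring regions, of shared regions and of single markers were named after their values were seen.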

Additional observations from a re-analysis of the deposited data

How the results depend on the processing

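Pseudocounts of 1 and 36 and a row per set of regions changed no call of the 4 genes, while genes lower in males numbered 49, 68 and 80. The number of genes lower in males, 71, became 0 when the lowest 25% of genes by mean height were left out, 0 with centred libraries, 0 with quantile normalization and 416 without trend (4769 at an unadjusted p under 0.05). Without the lowest 25% of genes, with centred libraries and with quantile normalization, 2736, 436 and 426 genes were lower at an unadjusted p under 0.05. In the same order 0, 526 and 485 were higher at that threshold. The difference of Pparg reversed to 0.071 with centred libraries and 0.048 with quantile normalization. The number of the 4 genes whose males lay below the females became 2 in both, beside 21.7% and 20.6% of all genes. Without trend Retn passed at its difference of -1.18 (limma adjusted p = 0.0435). Pparg, Retn and Cfd lay below the percentile filter and have no value under it.

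The replicate number shared by the sexes, taken as a block, gave 6918 genes lower and 7 higher, and Retn (-1.18), Cfd (-1.05) and Adipor2 (-0.97) passed while Pparg did not (limma adjusted p = 0.0547). The deviations of samples with the same number showed almost no correlation across genes (0.0166). A correlation does not see a shift common to all genes. In each sex the median height over all genes was higher in replicate 1 than in replicate 2 (38 and 30.2 in females, 24 and 14.7 in males). The labels give only a shared number.

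With 1 library left out, genes lower numbered 0 (without male 2) to 6391 (without male 1), with 19 without female 1, and genes higher 0 to 28. Differences ranged from -0.71 to -0.38 for Pparg, -1.58 to -0.77 for Retn, -1.23 to -0.87 for Cfd and -1.38 to -0.55 for Adipor2. Centred and without male 2, a setting chosen after seeing the data, 13 genes were lower and 9 higher, the differences were -0.094, -0.40, -0.53 and -0.17 in that order, and 3 of the 4 genes had males below females. Requiring a peak to cover 50% of a region kept 9 of the 10 peaks at the 5 regions. Depth is unknown and limits the lowest heights, above all that of Retn in male 2.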
